A study of Sus scrofa with 6 samples.

Results

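Integrins are paired alpha and beta chains that hold a cell to its matrix, and the proteins of focal adhesions tie their tails to actin. Expression of 40 genes of this system was described here: 12 integrin alpha chains, 6 beta chains, 4 other surface receptors (CD44, CD151, DDR1 and DDR2) and 18 cytoplasmic adaptors and kinases. They were chosen by symbol from a table of 17670 pig genes, and each symbol matched 1 row. RNA was sequenced from cultured immature Sertoli cells, the nurse cells of the seminiferous tubule, prepared from pig testis at 80 to 90 days of gestation. The 3 AA2P libraries came from cells given 250 µM L-ascorbic acid 2-phosphate, a stable form of vitamin C, once they had been in culture for 6 h. The 3 control libraries came from a control group, taken here as cells without AA2P although its treatment is not spelled out, and both groups grew in minimum essential medium with fetal bovine serum and penicillin-streptomycin. The sources used here give neither how long AA2P was left on nor whether each library stands for its own culture or animal. The p-values therefore measure only the spread between these libraries, which may be technical.

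The alpha chain largely sets which ligand an integrin binds. ITGA1, ITGA2, ITGA10 and ITGA11 encode collagen receptors, ITGA3, ITGA6 and ITGA7 laminin receptors, and ITGA5, ITGA8 and ITGAV receptors for the RGD motif of fibronectin, nephronectin and vitronectin. Most alpha chains pair with beta1, while alphaV also pairs with beta3, beta5, beta6 and beta8, and beta4 pairs with alpha6 alone. Talins and kindlins bind the beta tails and switch integrins on, vinculin and the ILK-PINCH-parvin complex join them to actin, and FAK and SRC signal through scaffolds such as paxillin. In the seminiferous tubule, Sertoli cells use integrins at the basement membrane and at their junctions with germ cells.

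Library totals ran from 18747307 to 23122000 counts with AA2P and from 19299585 to 23521291 counts in controls. Levels are given as CPM, counts scaled for library size with TMM factors, which set the bulk of genes equal between libraries. CPM is not corrected for gene length, so levels were compared between libraries and not between genes. The labelled cell type was only partly borne out by its markers. SOX9, WT1, AMH and clusterin (CLU) were detected. SOX9 averaged 2.22 CPM with AA2P and 11.6 CPM in controls, 5.20-fold lower with AA2P. WT1 averaged 23.8 CPM with AA2P and 40.7 CPM in controls, and AMH 34.5 and 36.4 CPM. The Sertoli genes INHA, DHH and NR5A1 had at most 0.276 CPM in any library, near the level of 3 counts (0.123 to 0.165 CPM). Some kidney tubule genes were present in both groups, among them HNF4A at 155 ± 21.1 CPM with AA2P and 38.55 ± 3.92 CPM in controls (SD, n = 3). Others were not: UMOD and AQP2 had at most 0.0551 CPM in any library. AQP1 was low, at a mean of 1.40 CPM with AA2P and 0.854 CPM in controls. AA2P library 3 lay nearest of its group to the control mean in 22 of the 30 members that passed the test described next.

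Integrin and focal adhesion genes were mostly lower in cells given AA2P, and the largest changes were in the receptors. Of 37 members with enough counts to be tested, 26 were lower and 4 higher at an adjusted p under 0.05, by the quasi-likelihood test of edgeR, with p-values adjusted by the Benjamini-Hochberg method over all 12701 genes tested. Scaled by library totals alone, without TMM factors, the counts were 17 lower and 9 higher. Over all 12701 tested genes that scaling gave 1822 lower and 5727 higher. With TMM factors and without AA2P replicate 3, 27 members were lower and 5 higher. Members called lower were 70.3% of those tested, against 26.1% of all tested genes, and members called higher were 10.8%, against 26.0%. Both directions together, 52.1% of all tested genes were called, so a call on its own was common in this comparison. The median log2 fold change (AA2P over control) of the members was -0.29, against -0.00049 over all tested genes. Changes of at least 1.5-fold were called in 12 members, 11 lower and 1 higher, a size reached by 7.97% of all tested genes in the lower and 10.3% in the higher direction. The AA2P and control libraries did not overlap in 33 members, 28 with AA2P below and 5 above, against 29.5% and 29.8% of all tested genes (59.3% in either direction). In bulk RNA, fewer cells of a type and less RNA per cell cannot be told apart.

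**Figure D1:**
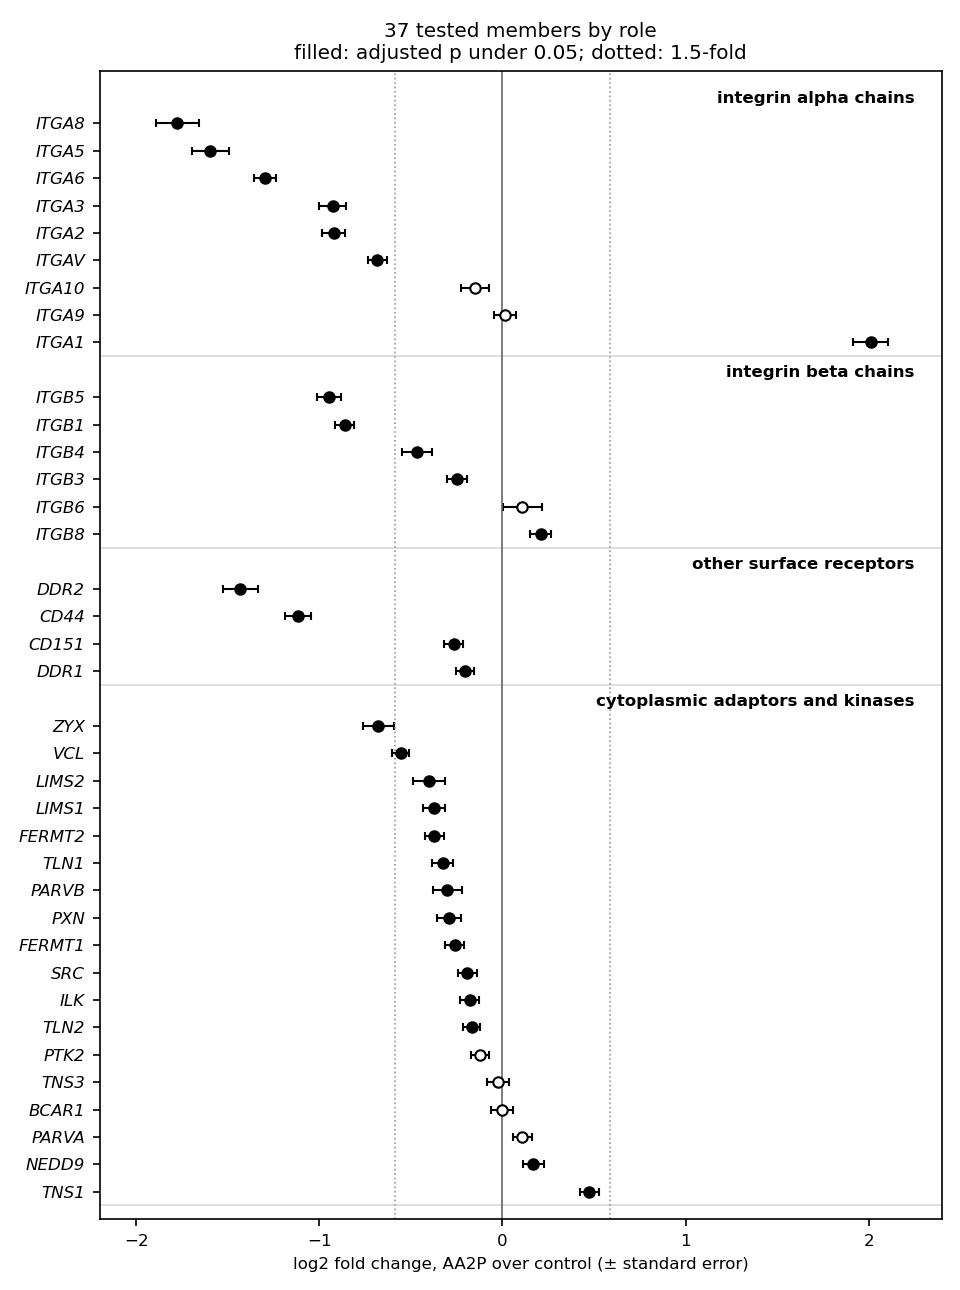
Log2 fold change of AA2P over control (x axis) for each of the 37 tested members, grouped by role and ordered by size. Bars are standard errors, filled points passed an adjusted p of 0.05 and dotted lines mark 1.5-fold. Most receptor genes lie far left of 0 and ITGA1 lies alone at 2.01, while the 18 adaptors lie between -0.68 and 0.47. Scaled by library totals alone, each point lies about 0.17 further right.

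Of the 12 alpha chains, 9 were tested, 6 fell and ITGA1 rose. The alpha1 chain of the collagen and laminin receptor alpha1beta1 is known from smooth muscle, stroma and endothelium, among other cells. ITGA1 had 587, 536 and 411 CPM in the AA2P libraries, against 129, 124 and 128 CPM in control libraries. Every AA2P library was thus above every control library, library 3 the least so. The log2 fold change of ITGA1 was 2.01 with a standard error of 0.09, or 4.03-fold higher, with an adjusted p of 5.08e-11 by edgeR. With AA2P library 3 left out, the log2 fold change was 2.15 for ITGA1, and it was -2.02, -1.78 and -1.60 for ITGA8, ITGA5 and DDR2, each larger in size than with it.

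The other tested collagen-binding chains, ITGA2 and ITGA10, were not called higher. ITGA2, the alpha2 chain of a collagen receptor of epithelia and platelets, had 385, 390.2 and 464 CPM with AA2P, against 756, 801 and 792 CPM in controls. It was lower in every AA2P library, by 1.90-fold. ITGA10, known best from cartilage, had 18.6, 19.5 and 18.9 CPM with AA2P, against 20.8, 21.3 and 21.1 CPM in controls. The groups did not overlap for ITGA10, but its log2 fold change of -0.15 ± 0.08 (standard error) missed the threshold, with an adjusted p of 0.11 by edgeR. ITGA11, a fibroblast collagen receptor chain, had 9, 5 and 7 counts with AA2P and 3, 4 and 2 counts in controls. Every AA2P count of ITGA11 was above the controls, but the counts were too few to be tested.

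Laminin-binding chains fell. ITGA6, the alpha6 chain of epithelial laminin receptors and hemidesmosomes, had 318, 315 and 365 CPM with AA2P, against 785, 823 and 841 CPM in controls. ITGA3, whose product binds laminins of epithelial basement membranes, had 906, 1007 and 1187 CPM with AA2P, against 1951, 1966 and 1982 CPM in controls. The lowest control value exceeded the highest AA2P value for both genes. The decreases were 2.46-fold for ITGA6 and 1.90-fold for ITGA3, with adjusted p-values of 4.12e-11 and 2.01e-08 by edgeR. ITGA7, a laminin receptor chain of muscle, had 1 to 3 counts in the AA2P libraries and 0 to 4 in controls, so a difference was not detectable at this depth.

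All 3 RGD-binding chains fell, ITGA8 and ITGA5 the most of the tested alpha chains and ITGAV the least of the 6 that fell. ITGA8, whose product pairs with beta1 and binds nephronectin, had 68.7, 70.5 and 107 CPM with AA2P, against 277, 278 and 290.2 CPM in controls. ITGA5, the fibronectin receptor chain, had 216, 246 and 326 CPM with AA2P, against 817, 797 and 769 CPM in controls. For both genes AA2P library 3 was the highest of its group and still below every control library. ITGA8 fell 3.42-fold (adjusted p of 2.31e-09) and ITGA5 fell 3.02-fold (1.6e-09, edgeR). ITGAV, which encodes the alphaV chain shared by several RGD receptors, had 173, 164 and 154 CPM with AA2P, against 257, 268 and 264 CPM in controls, a 1.61-fold decrease. Here library 3 was the lowest of the AA2P libraries, not the nearest to controls.

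The remaining alpha chains were not called by TMM scaling. ITGA9, whose product binds tenascin and VCAM1, averaged 93.6 ± 8.003 CPM with AA2P and 92.6 ± 3.17 CPM in controls (SD, n = 3), and the groups overlapped, while with library totals it was called higher at a log2 fold change of 0.18 (adjusted p of 0.0191, edgeR). ITGA4, the alpha4 chain known from leukocytes, had 2 counts in each AA2P library and 0 in each control library, below the level of 3 counts.

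**Figure D2:**
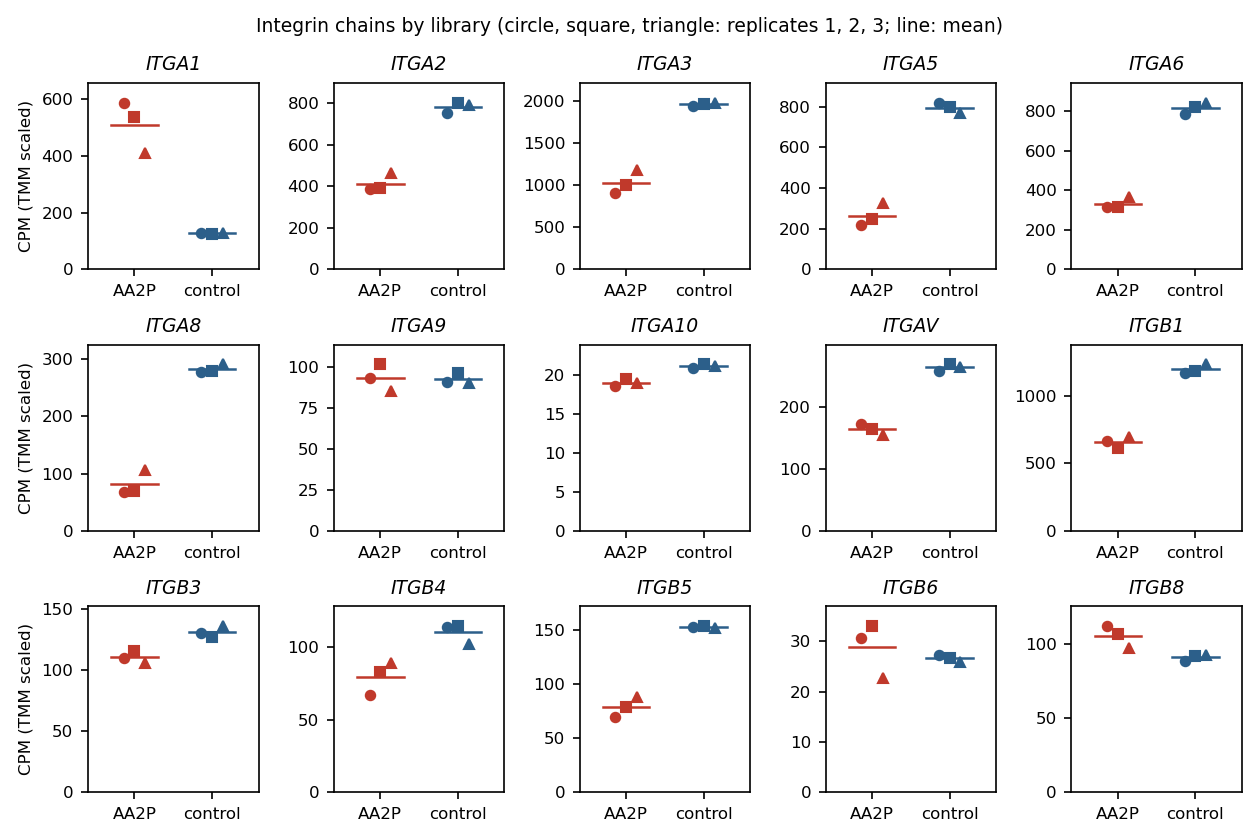
TMM-scaled CPM of the 15 tested integrin chains in each library, on axes that start at 0, with AA2P left and control right in each panel. Circles, squares and triangles are replicates 1, 2 and 3, and lines are group means. AA2P values lie below all control values in 11 panels and above them for ITGA1 and ITGB8, while the groups overlap for ITGA9 and ITGB6.

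Among the 6 beta chains, 4 fell and 1 rose. ITGB1, the beta1 chain that most alpha chains need to reach the surface, had 666, 613 and 694 CPM with AA2P, against 1166, 1186 and 1231 CPM in controls. ITGB5, a partner of alphaV that binds vitronectin, had 70.1, 79.3 and 88.2 CPM with AA2P, against 153, 154 and 152 CPM in controls. Both sets of AA2P values lay wholly below the controls, and the decreases were 1.82-fold for ITGB1 and 1.93-fold for ITGB5 (adjusted p of 1.08e-09 and 5.6e-09, edgeR). ITGB4, the hemidesmosome chain that joins laminin to keratin, averaged 79.5 ± 11.4 CPM with AA2P and 109.9 ± 7.13 CPM in controls (SD, n = 3), a 1.38-fold decrease.

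Smaller changes were seen in the other partners of alphaV. ITGB3, the beta3 chain of the vitronectin receptor, averaged 110.1 ± 5.15 CPM with AA2P and 131 ± 4.68 CPM in controls (SD, n = 3), with a log2 fold change of -0.25 that lost its call with library totals (-0.08, adjusted p of 0.222, edgeR). ITGB8, whose product releases active TGF-beta from its latent form, had 112, 106 and 97.0 CPM with AA2P, against 88.4, 91.6 and 92.3 CPM in controls. Every AA2P value of ITGB8 was above the controls, and its log2 fold change was 0.21 with a standard error of 0.06 and an adjusted p of 0.006 by edgeR. ITGB6, an epithelial activator of TGF-beta, had 30.6, 33.1 and 22.8 CPM with AA2P, against 27.3, 26.7 and 25.9 CPM in controls. AA2P library 3 was the lowest of all 6 libraries and libraries 1 and 2 the highest, and without AA2P replicate 3 the log2 fold change of ITGB6 was 0.26 with an adjusted p of 0.00435 (edgeR), against 0.11 and 0.418 with it. ITGB6 was also called higher with library totals, at 0.28 and 0.0351.

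Ratios of counts between partner chains within a library do not depend on how libraries are scaled. ITGA1 had 0.883, 0.874 and 0.592 counts per count of ITGB1 in the AA2P libraries, against 0.1105, 0.104 and 0.104 in controls, and the mean ratio was 7.37 times as high with AA2P. ITGA1 rose and ITGB1 fell, and library 3 had the lowest ratio of the AA2P libraries. ITGA8 had 0.103, 0.115 and 0.154 counts per count of ITGB1 with AA2P, against 0.238, 0.2345 and 0.236 in controls, and ITGA5 had 0.325, 0.401 and 0.470 against 0.701, 0.672 and 0.625. Both chains were thus lower relative to ITGB1, without overlap between groups, and so was ITGA6, at 0.4775 to 0.526 against 0.674 to 0.694. ITGA9 and ITGA10, which were not called by themselves, had ratios to ITGB1 that were higher in every AA2P library, with means 1.85 and 1.64 times those of controls. Since ITGB1 fell 1.82-fold, such a ratio rises for a gene that does not change. For ITGA2, ITGA3 and ITGAV the ratio to ITGB1 overlapped between groups.

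The partners of alphaV spread apart in the same measure. ITGB8 had 0.647, 0.646 and 0.629 counts per count of ITGAV with AA2P, against 0.344, 0.342 and 0.349 in controls, a mean ratio 1.86 times as high. ITGB6 and ITGB3 also had higher ratios to ITGAV in every AA2P library, with means 1.73 and 1.35 times those of controls. ITGAV itself fell 1.61-fold, while ITGB6 was not called and ITGB3 fell 1.19-fold. The ratio of ITGB5 to ITGAV went the other way, at 0.406, 0.483 and 0.571 with AA2P, against 0.593, 0.574 and 0.575 in controls. ITGB4 per count of ITGA6 was 0.239 ± 0.0262 with AA2P and 0.135 ± 0.0125 in controls (SD, n = 3), without overlap. Both of these chains fell, ITGA6 by 2.46-fold and ITGB4 by 1.38-fold. With 3 libraries a group an exact two-sided permutation test of such a ratio cannot go below 0.1, so no p is given.

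**Figure D3:**
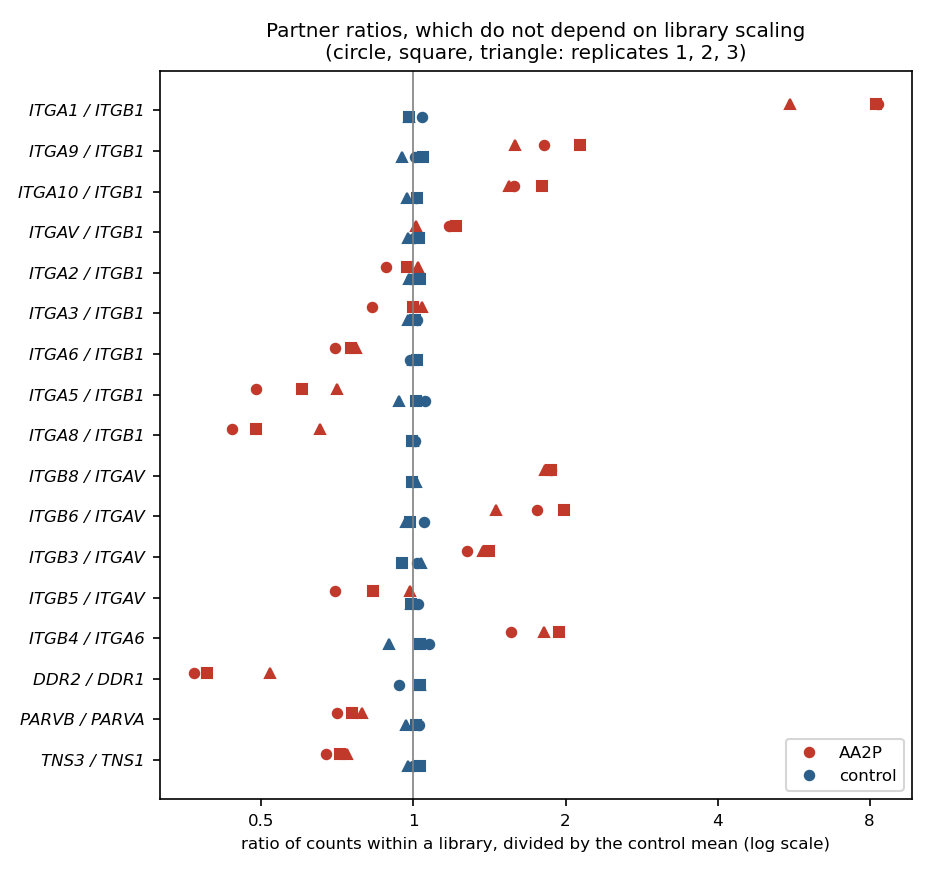
Ratios of counts between named partners or relatives within each library, divided by the control mean of the same ratio and drawn on a log2 axis; for each pair the AA2P libraries are drawn above the control libraries. Of the pairs drawn, ITGA1 to ITGB1 shifts the most, with a mean ratio 7.37 times as high with AA2P, and the ratio of DDR2 to DDR1 shows the lowest AA2P values.

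All 4 other surface receptors fell by TMM scaling, of which CD44 and DDR2 kept their calls with library totals and CD151 and DDR1 did not. DDR2, a receptor tyrosine kinase for fibrillar collagens, had 64.3, 73.7 and 94.6 CPM with AA2P, against 202, 212 and 215 CPM in controls. CD44, the receptor for hyaluronan, had 302, 326 and 386 CPM with AA2P, against 729, 749.7 and 719.6 CPM in controls. Both were lower in every AA2P library, by 2.70-fold for DDR2 and 2.17-fold for CD44 (adjusted p of 2.68e-09 and 1.42e-09, edgeR). DDR1, the epithelial relative of DDR2 that also binds basement membrane collagen, averaged 211 ± 7.995 CPM with AA2P and 244 ± 6.09 CPM in controls (SD, n = 3). The 2 collagen receptor kinases therefore changed by unlike amounts, with 0.316, 0.336 and 0.448 counts of DDR2 per count of DDR1 with AA2P, against 0.8075, 0.887 and 0.888 in controls. CD151, a tetraspanin that binds laminin receptors, averaged 137 ± 7.31 CPM with AA2P and 165 ± 5.12 CPM in controls, a log2 fold change of -0.27.

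All 18 cytoplasmic adaptors and kinases were tested, and 12 fell and 2 rose by TMM scaling, while with library totals 6 fell and 5 rose. Over all 12701 tested genes 3313 fell and 3302 rose by TMM scaling, and 1822 fell and 5727 rose with library totals. The changes of the adaptors were small: ZYX alone passed 1.5-fold. Among the proteins that bind beta tails or the talin rod, TLN1, TLN2, FERMT1, FERMT2 and VCL all fell by TMM scaling, and TLN2 and FERMT1 lost the call with library totals. VCL, which encodes vinculin, had 543, 545 and 568 CPM with AA2P, against 816, 812 and 806 CPM in controls. The decrease of VCL was 1.47-fold, with an adjusted p of 3.23e-08 by edgeR, and its replicates were close together in both groups. TLN1, the widespread talin, had 944, 1029 and 1112 CPM with AA2P, against 1309, 1295 and 1266 CPM in controls, a log2 fold change of -0.33. FERMT2, the kindlin of most adherent cells, averaged 193 ± 8.53 CPM with AA2P and 250.0 ± 9.43 CPM in controls (SD, n = 3), and FERMT1, the kindlin of epithelia, averaged 71.0 ± 3.19 CPM with AA2P and 85.1 ± 1.41 CPM in controls. TLN2 was at 377 ± 9.87 CPM with AA2P and 424 ± 0.798 CPM in controls, a log2 fold change of -0.17 that was 0.0018 with library totals.

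In the ILK-PINCH-parvin complex 4 of 5 genes fell by TMM scaling. LIMS1 and LIMS2, the PINCH adaptors that link ILK to actin regulators, fell by 0.37 and 0.40 on the log2 scale with standard errors of 0.06 and 0.09. ILK itself averaged 147 ± 6.38 CPM with AA2P and 166 ± 4.98 CPM in controls (SD, n = 3), and its call was lost with library totals, as was that of PARVB. The parvins, which bind ILK and actin, differed: PARVB was at 18.1 ± 0.9001 CPM with AA2P and 22.4 ± 1.05 CPM in controls, while PARVA was at 103 ± 0.792 CPM with AA2P and 95.9 ± 3.49 CPM in controls. PARVA missed the threshold with an adjusted p of 0.0828 (edgeR) and passed it with library totals as higher. In every AA2P library the count of PARVB per count of PARVA was lower, at 0.165 to 0.185 against 0.225 to 0.240 in controls.

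The signalling kinases and scaffolds showed the smallest differences. PTK2, which encodes focal adhesion kinase (FAK), had 113, 121 and 122 CPM with AA2P, against 129, 129 and 128 CPM in controls. Its groups did not overlap, but its log2 fold change of -0.12 gave an adjusted p of 0.0512 (edgeR), and it passed the threshold with limma-voom and without AA2P replicate 3, at 0.0499 and 0.0228. With library totals its log2 fold change turned to 0.048 and was not called. SRC, the kinase that acts with FAK, and PXN, which encodes the scaffold paxillin, fell by 0.19 and 0.29 on the log2 scale and lost their calls with library totals. BCAR1, the p130Cas scaffold, had 178, 193 and 212 CPM with AA2P, against 204, 194 and 186 CPM in controls. Its groups overlapped, and with library totals it was called higher at a log2 fold change of 0.17 (adjusted p of 0.0236, edgeR). NEDD9, its relative, averaged 343 ± 13.5 CPM with AA2P and 305 ± 21.6 CPM in controls (SD, n = 3), with an adjusted p of 0.0184 (edgeR) that was 0.1 without AA2P replicate 2 and 0.136 without control replicate 3. Without either of those libraries TNS1 was the single adaptor called higher.

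Zyxin and the tensins went apart. ZYX, whose product gathers at adhesions under tension, had 43.7, 44.6 and 57.0 CPM with AA2P, against 79.6, 78.6 and 74.8 CPM in controls, a 1.6-fold decrease with an adjusted p of 3.52e-06 (edgeR). TNS1, a tensin of fibrillar adhesions that binds beta tails and actin, had 221, 242 and 219 CPM with AA2P, against 167, 159 and 164 CPM in controls. TNS1 was above the controls in every AA2P library, by 1.39-fold with an adjusted p of 1.02e-06 by edgeR. TNS1 and NEDD9 were called higher under both scalings. TNS3, another tensin, overlapped between groups at 70.6 ± 5.25 CPM with AA2P and 71.7 ± 1.37 CPM in controls (SD, n = 3), and with library totals it was called higher at 0.15 (adjusted p of 0.0448, edgeR).

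Set side by side, the integrin chains and the adaptors differed in the size of their changes more than in their calls. By TMM scaling 10 of 15 tested chains and 12 of 18 adaptors were called lower, which is 66.7% of each, against 26.1% of all tested genes. The median log2 fold change was -0.68 for the chains, -0.69 for the other surface receptors and -0.23 for the adaptors. A called change of 1.5-fold or more was seen in 9 of the 15 chains and in 1 of the 18 adaptors. Of all tested genes 7.97% reached that size in the lower and 10.3% in the higher direction. With library totals all 12701 genes moved up by a median of 0.17, and 1822 were called lower and 5727 higher. In that setting the median of the chains was -0.51, with 9 lower and 4 higher. That of the adaptors was -0.06, with 6 lower and 5 higher. The chains took 0.407% to 0.444% of all counts with AA2P and 0.638% to 0.653% in controls, and the adaptors took 0.378% to 0.401% with AA2P and 0.403% to 0.413% in controls. Since the genes were grouped with results of these data known, the contrast between the groups is a description and was not tested.

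**Figure D4:**
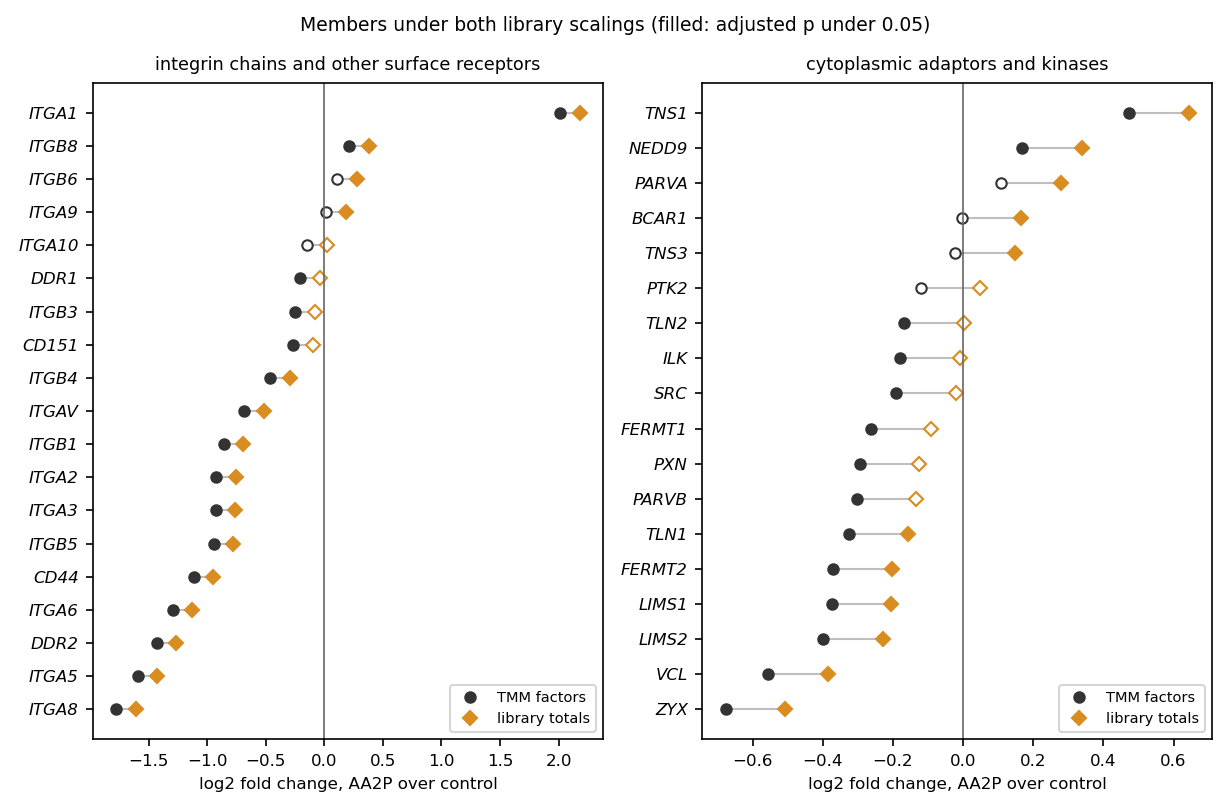
Log2 fold change of AA2P over control with TMM factors (circles) and with library totals (diamonds) for the surface receptors (left) and the cytoplasmic adaptors (right, on a narrower axis); filled symbols passed an adjusted p of 0.05. ITGA1 and most receptor decreases keep their sign and call under both scalings, while 6 of the 12 adaptor decreases lose their call with library totals.

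Ligands of integrins were mostly lower as well. Of 37 tested ligand genes 25 fell and 4 rose, against 26.1% and 26.0% of all tested genes, with a median log2 fold change of -0.48. With library totals 22 fell and 7 rose, against 1822 and 5727 of all 12701 tested genes. The ligands with the smallest p-values were the laminin chain LAMA4, fibronectin (FN1), CCN2, TGFBI and tenascin C (TNC). By TMM scaling their changes were -1.63, -1.78, -1.53, -1.76 and -2.76 on the log2 scale. FN1, the ligand of the receptor chain ITGA5, averaged 7602 ± 989.5 CPM with AA2P and 26042 ± 825 CPM in controls (SD, n = 3). Nephronectin (NPNT), the ligand of alpha8beta1, was named after its values were seen: it had 867 ± 56.3 CPM with AA2P and 945 ± 13.5 CPM in controls and missed the threshold at an adjusted p of 0.055 (edgeR), while its receptor chain ITGA8 fell 3.42-fold. NPNT passed the threshold as lower with no filter on low counts, with the DESeq2 Wald test, with limma-voom and without AA2P replicate 1. The count of ligands called higher was 2 without control replicate 2, where CCN1 and EMILIN1 lost their calls, and 2 without control replicate 3, where LAMA3 and EMILIN1 did.

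Other proteins of focal adhesions fell more often than they rose. Among 22 tested scaffold and actin-linking genes 16 fell and 5 rose, with a median of -0.42, beside 26.1% and 26.0% of all tested genes. ENAH and VASP, which extend actin filaments at adhesions, averaged 827 ± 64.6 and 83.0 ± 12.3 CPM with AA2P and 1597 ± 47.3 and 142 ± 5.17 CPM in controls (SD, n = 3). The LIM protein PDLIM5 and caveolin 1 (CAV1) fell by 0.68 and 0.57 on the log2 scale, and the vinculin-binding adaptor SORBS2 rose by 0.45. With library totals 13 fell and 5 rose, against 1822 and 5727 of all 12701 tested genes. The lower calls were also 13 without control replicate 1, without control replicate 2 and at an adjusted p of 0.01. Only 3 genes of this list were called higher without AA2P replicate 2 or without control replicate 3.

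Among 31 tested signalling genes 14 fell and 2 rose, with a median of -0.11, and with library totals 10 fell and 10 rose. The shares over all tested genes were 26.1% lower and 26.0% higher by TMM scaling. With library totals 1822 of all 12701 tested genes fell and 5727 rose. FYN, a kinase related to SRC, averaged 5.58 ± 0.736 CPM with AA2P and 31.1 ± 3.55 CPM in controls (SD, n = 3), a log2 fold change of -2.47 against -0.19 for SRC. The phosphatase PTPN12, the scaffold kinase PEAK1 and the FAK relative PTK2B fell by 0.58, 0.54 and 0.46 on the log2 scale, and the small GTPase RHOB rose by 0.77.

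Among 20 tested regulators of integrins 8 fell and 6 rose, or 4 and 9 with library totals. Over all 12701 tested genes 26.1% fell and 26.0% rose, and with library totals 1822 fell and 5727 rose. The higher calls of this list were thus near the background. The tetraspanin CD9, the CD98 heavy chain SLC3A2, which binds beta tails, and CD47 fell by 1.08, 1.02 and 0.54 on the log2 scale. DAB2, an endocytic adaptor for integrins, and the fatty acid-binding protein FABP3 rose by 0.45 and 0.39. Of 4 tested syndecans and glypicans, the heparan sulfate co-receptors, GPC1 and SDC3 fell by 1.08 and 1.2 on the log2 scale, while SDC1 and SDC2 missed the threshold. With library totals SDC1 and SDC2 were called higher, and without AA2P replicate 3 SDC2 was. Of 9 tested hemidesmosome genes, 3 of them members (ITGA6, ITGB4 and CD151), 6 fell and 1 rose. With library totals 4 fell and 1 rose, as CD151 and PLEC lost their calls. PLEC overlapped between groups and also lost its call with the DESeq2 Wald test, without AA2P replicate 1, without control replicate 1 and at an adjusted p of 0.01. The gene that rose, the laminin chain LAMA3, lost its call without AA2P replicate 3, without control replicate 1 and without control replicate 3. The laminin chain LAMB3 fell by 1.55 on the log2 scale.

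**Figure D5:**
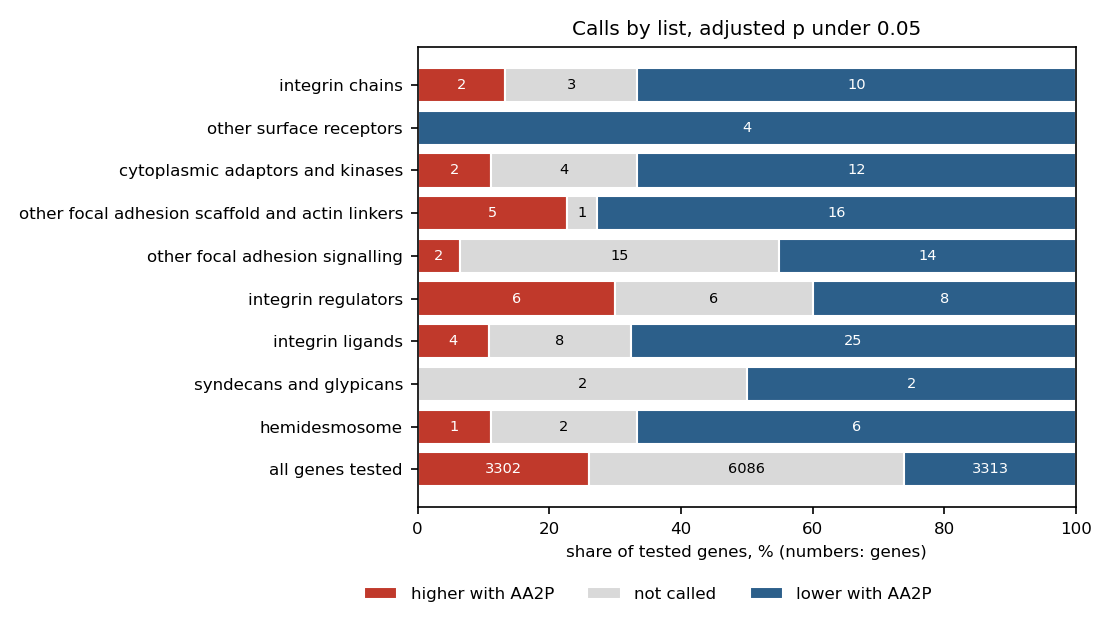
Share of tested genes in each list that were called higher with AA2P, not called or called lower (x axis, percent), with gene numbers in the bars; TMM scaling, adjusted p under 0.05. The integrin chains, the adaptors and the ligands show lower calls in most of their genes. Among all 12701 tested genes 3313 calls were lower and 3302 higher. With library totals 6 of the 18 adaptors were called lower and 5 higher, beside 1822 lower and 5727 higher of all tested genes.

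Markers of some cell types also moved between the groups, where 26.0% of all tested genes were called higher and 26.1% lower. The Sertoli list summed to 5467 to 6925 CPM with AA2P and to 14420 to 15228 CPM in controls, with 8 of 12 tested genes lower and 2 higher. Most of that sum was vimentin (VIM), which many other cell types express, at 4115 ± 457 CPM with AA2P and 9745 ± 269.6 CPM in controls, and CLU, at 1302 ± 266 CPM with AA2P and 4229.9 ± 168 CPM in controls (SD, n = 3). The kidney tubule list summed to 3151 to 3587 CPM with AA2P and to 2164 to 2260 CPM in controls. Of its 12 tested genes 11 were higher and 1, EMX2, was lower, by 1.63-fold. Its largest part was CDH6, at 1987 ± 47.8 CPM with AA2P and 1787 ± 26.0 CPM in controls, 1.11-fold higher. LRP2 rose more, 7.94-fold, with 638 ± 144 CPM with AA2P and 80.1 ± 14.0 CPM in controls, and SLC34A1 rose 5.67-fold. The stromal list, carried by COL1A2, summed to 8475 to 9137 CPM with AA2P and to 12439 to 13317 CPM in controls, with 3 of 4 tested genes lower and 1 higher, and its defining genes PDGFRA and PDGFRB had at most 0.616 CPM. Their part in the integrin changes was not tested. The smooth muscle list summed to 1432 to 1490 CPM with AA2P and to 1458 to 1508 CPM in controls, with ACTA2 and MYH11 at most 0.496 CPM, and 2 of 8 tested genes were higher and 4 lower.

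Leukocyte and platelet genes summed to 44.5 to 50.5 CPM with AA2P and to 50.7 to 53.8 CPM in controls. Of their 10 tested genes 2 were higher and 3 lower, near the shares of all tested genes (26.0% and 26.1%). The leukocyte integrin chain ITGAM was at 1.42 ± 0.410 CPM with AA2P and 6.05 ± 0.603 CPM in controls (SD, n = 3), a 4.2-fold decrease, and TYROBP and CD14 also fell, while AIF1 and CD3E rose. ITGB2, the beta chain that pairs with that of ITGAM, had 0.248 to 0.4005 CPM with AA2P and 0.165 to 0.361 CPM in controls. Endothelial genes summed to 11.01 to 13.2 CPM with AA2P and to 5.36 to 6.999 CPM in controls, where PECAM1 rose and TEK and EMCN had at most 0.198 CPM. Leydig and germ cell genes summed to at most 7.53 and 2.34 CPM in any library, and none of their tested genes, 1 in each list, passed the threshold (edgeR; adjusted p of 0.131 for STAR and 0.338 for DND1).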

How the data were processed

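For 6 libraries the authors deposited a table of raw counts per gene, all whole numbers. Total RNA was isolated with Trizol and sequenced on a HiSeq X-Ten, per the labels' protocols. Reads were handled with bcl2fastq and HISAT2 2.0.5, per the submitters' processing notes. The sources used here do not give the counter, strand setting, annotation or build, so genes that overlap others or have near copies are uncertain. Symbols were found for 13141 of 17670 identifiers. Libraries were grouped by the labels.

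The test was edgeR 4.0.16 (R 4.3.3) by quasi-likelihood, with TMM factors, filterByExpr, the group alone in the model and Benjamini-Hochberg adjustment over 12701 genes. A standard error is the size of the log2 fold change divided by the root of the F statistic. The common biological coefficient of variation was 5.49%. Depth sets precision: 3 counts correspond to 0.123 to 0.165 CPM, for counting error only. The procedure was tested on simulated data in which few genes were changed, in random directions. Changes as broad as those seen here were not simulated, so the choice between TMM factors and library totals was not tested. Alternatives were DESeq2 1.42.0 size factors and Wald test, library totals, no filter, 1 CPM in 3 libraries, limma-voom (limma 3.58.1), replicate numbers as a block, leaving out each library in turn and an adjusted p of 0.01.

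The 40 members and all lists were chosen with earlier results of these data known. Every member could be named. Of each other pathway list up to 5 called genes with the smallest p were named, in addition to levels of cell type markers. CCN1, EMILIN1, LAMA3, SDC1, SDC2, PLEC and NPNT are exceptions, named after their values were seen. Some genes are not reported here. The partner ratios were added to the planned results.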

Additional observations from a re-analysis of the deposited data

How the results depend on the processing

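Scaling by library totals alone gave 5727 higher and 1822 lower genes, 9 members higher and 17 lower, 4 integrin chains higher, 5 adaptors higher and 6 lower, and 2 other surface receptors lower. In that setting 10 signalling genes, 7 ligands and 2 syndecans or glypicans were called higher and 4 integrin regulators lower. At an adjusted p of 0.01 the counts of higher genes were 1 adaptor, 3 scaffold genes, 1 ligand and 0 hemidesmosome genes (edgeR). Leaving out 1 library at a time gave 1 to 2 adaptors, 3 to 5 scaffold genes, 2 to 4 ligands, 0 to 1 syndecans or glypicans and 0 to 1 hemidesmosome genes called higher. Signs turned, with library totals, for ITGA10 (0.020), PTK2 (0.048), TLN2 (0.0018), BCAR1 (0.17) and TNS3 (0.15), and for BCAR1 with the filter of 1 CPM in 3 libraries (0.0011); of these TLN2 alone was called by TMM scaling, and BCAR1 and TNS3 were called higher with library totals. With 1 library left out, log2 fold changes ran from -0.048 to 0.080 for ITGA9, from -0.0020 to 0.26 for ITGB6, from -0.065 to 0.055 for BCAR1 and from -0.074 to 0.032 for TNS3. Of the 37 tested members, 20 kept direction and side of the threshold under all 14 alternatives, and 11 others changed with library totals alone. The libraries share replicate numbers, and deviations of same-numbered libraries from their group means correlated at -0.08, 0.00017 and -0.07. No library correlated best with its own number: AA2P 1, 2 and 3 did so with control 3, 1 and 2 (0.16, 0.096 and 0.08). With 3 libraries a group these correlations cannot settle whether same-numbered libraries shared a culture or animal. With the replicate number as a block 4 members were called higher and 26 lower, as without it, and 3094 and 3110 genes. Apart from the library totals, the cause of these shifts was not tested. Members at a few counts (ITGA4, ITGA7 and ITGA11) are limited by depth.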
